A study of Homo sapiens with 30 samples.

Results

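The genes described here are 10 amino acid stress genes known as targets of the transcription factor ATF4: PHGDH, PSAT1, ASNS, SLC7A11, CTH, CHAC1, SESN2, DDIT4, TRIB3 and ATF5. They were taken by symbol from the table of read counts, where all 10 were found among 63138 genes, and all 10 passed the filter on low counts in the fits of the direct, the vesicle and all libraries. ASNS was left out by the filter under some of the alternatives. The cells were hCMEC/D3, an immortalised human endothelial line from brain microvessels that serves to model the blood-brain barrier. The direct groups, 5 of 3 libraries each, were treated for 12 h. Control had serum-free medium alone, and TNF had TNFα (25 ng/mL). IL1b had the cytokine IL-1β (10 ng/mL), C5a had that fragment of complement (50 ng/mL), and Epinephrine had the hormone (200 nM). The 5 vesicle groups, also of 3 libraries each, were the same line given extracellular vesicles from the medium of cells treated in these ways. They are named EV- and the donor cells' treatment, with EV-Control as their control. The labels give 12 h for the vesicle groups too, and the same batch number for all 30 libraries. The amount of vesicles given and whether the 3 libraries of a group are separate cultures are not stated in the labels, so p-values measure the spread between these libraries, which may be technical. The whole study rests on 1 cell line, and the vesicles came from that same line.

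ATF4 is a transcription factor of the integrated stress response. When a kinase such as GCN2 senses missing amino acids, or PERK senses unfolded protein in the endoplasmic reticulum, phosphorylation of the translation factor eIF2α lowers general translation but raises that of ATF4 mRNA. ATF4 then induces enzymes that make serine, asparagine and cysteine, amino acid transporters, and genes that damp the mechanistic target of rapamycin (mTOR) or the stress response itself. Several of these genes also answer to other factors: DDIT4 to glucocorticoids and hypoxia, SESN2 to p53, and SLC7A11 to the oxidative stress factor NRF2.

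The 30 libraries held 16643961 to 22112326 counts, and the share of counts from mitochondrial genes ran from 1.72% to 3.15%. Of 10 endothelial markers, 9 had a mean of at least 1 CPM (counts scaled to a common library size with TMM factors), and EMCN was at 0.241 CPM. The astrocyte markers AQP4 and S100B had no count in any library, but GFAP of the same list had a mean of 3.61 CPM. The highest of the neuron and leukocyte lists were SYT1 at 2.01 CPM and CD14 at 1.68 CPM. Pericyte and epithelial lists were in part detected, with PDGFRB at 67.9 CPM and KRT18 at 263 CPM, while EPCAM was at 0.0547 CPM. Each of the 30 pairs of replicates differed by more than counting noise, with a chi-square per gene of 2.04 to 12.9, so no library was counted as a copy of another.

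The genes did not move as one. PHGDH fell with TNF and rose with the vesicles of TNF-, IL-1β- and epinephrine-treated cells. SLC7A11 rose with epinephrine and fell with the vesicles of epinephrine-treated cells. SESN2, DDIT4 and TRIB3 were lower under all 4 direct stimuli, and none of the 3 passed the test with any vesicles in the main fit. CTH fell with 3 of the 4 kinds of vesicles and passed with no direct stimulus. The 4 direct comparisons share the Control libraries, and the 4 vesicle comparisons share the EV-Control libraries, so calls within each set of 4 are not independent.

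**Figure D1:**
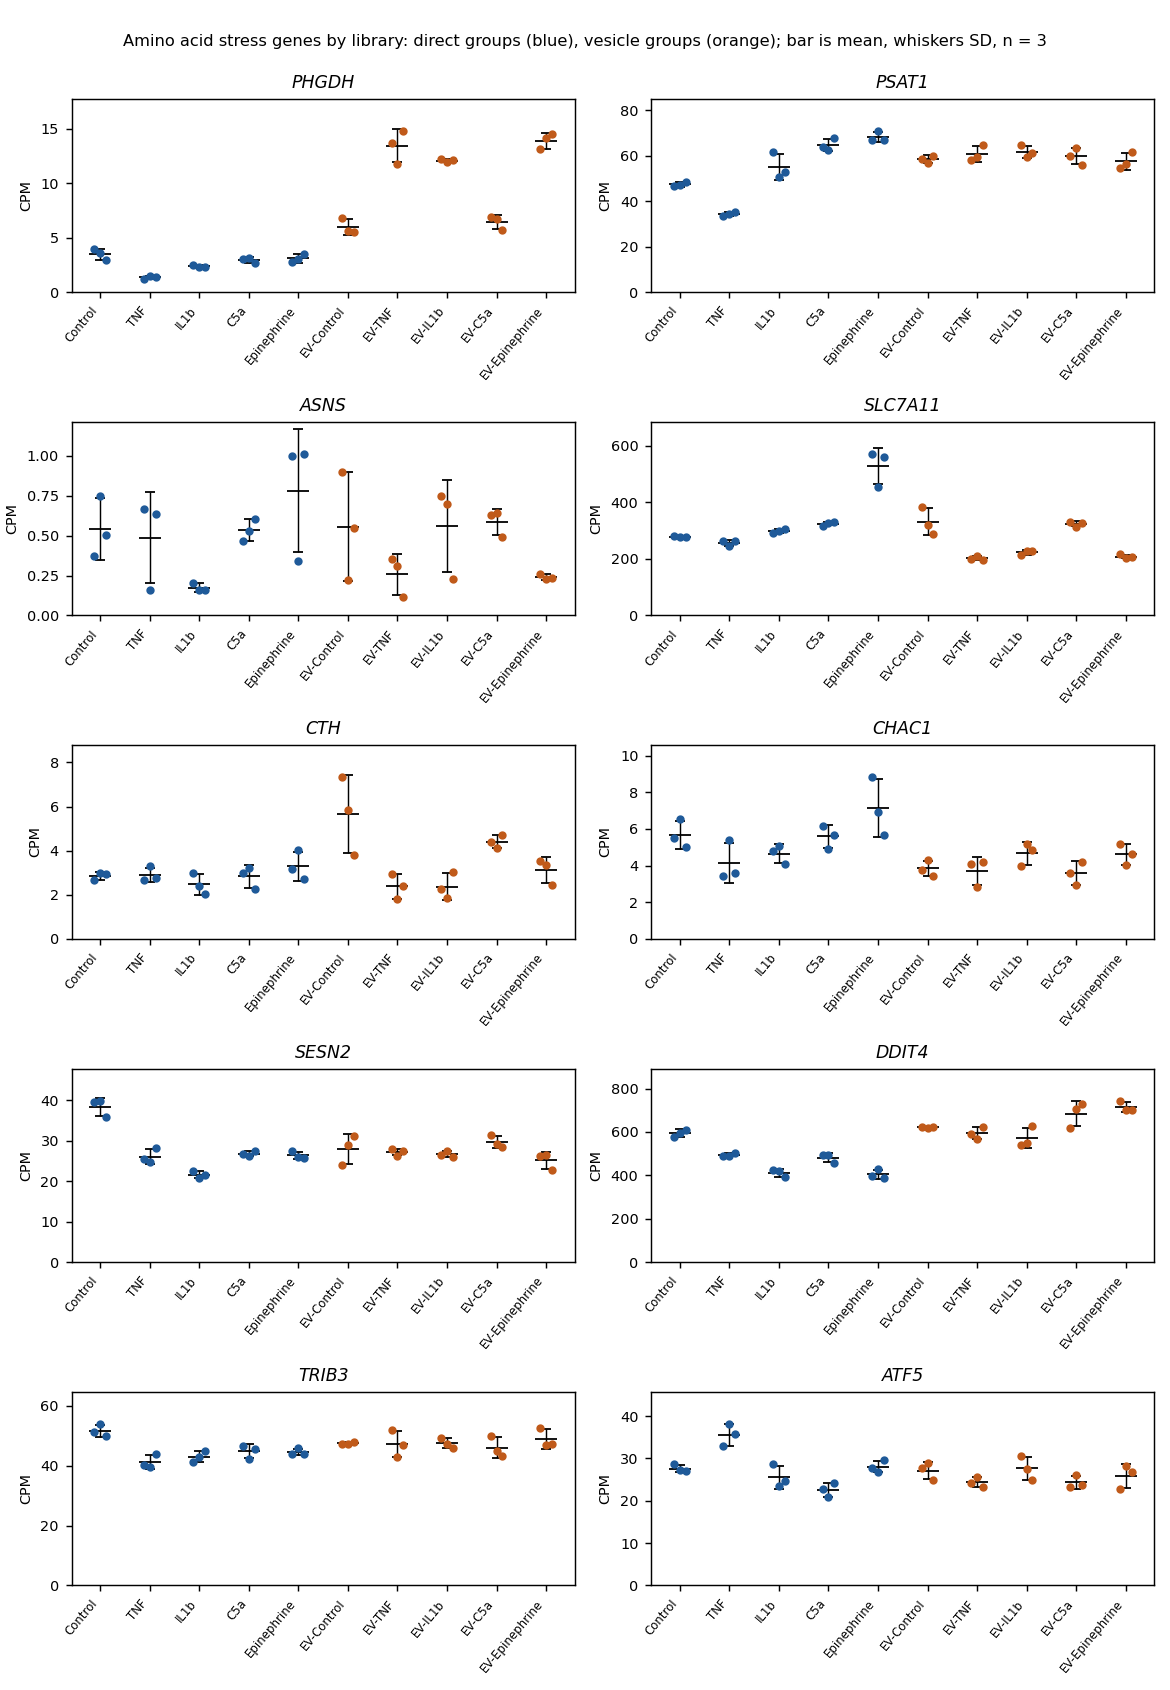
Each panel plots 1 gene, with CPM on a linear axis from 0 and the 10 groups along x; points are libraries (direct groups blue, vesicle groups orange), the bar is the mean and the whiskers the SD (n = 3). PHGDH is highest in EV-TNF, EV-IL1b and EV-Epinephrine, SLC7A11 is highest in Epinephrine, and SESN2 is highest in Control.

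Stretches around RefSeq start sites of these genes are given on GRCh38.p14, 5′ to 3′ on the gene's strand. They are not all upstream of the gene, since GENCODE 29 starts some of these genes further upstream than RefSeq does. Of the 10 genes, 9 had an entry, with 14 windows from 250 bases before to 50 after a start site; SLC7A11 had none. The core of the amino acid response element that ATF4 binds with its partners, TGATGNAA read on both strands, was found in 2 of the 14 windows, those of ASNS and CHAC1, and in 3.62% of 35116 windows of all genes. In ASNS it began 68 bases before the RefSeq start site and in CHAC1 209 bases before it. Both matches lie inside the gene bounds of GENCODE 29, and of the 250 bases before the RefSeq start 134 lie in annotated exons in ASNS and 250 in CHAC1. These 2 are printed because they hold the matches, which the capitals mark.
ASNS, chr7:97872458-97872487, minus strand: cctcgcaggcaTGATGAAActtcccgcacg
CHAC1, chr15:40953251-40953280, plus strand: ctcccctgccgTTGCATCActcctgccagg
The antioxidant response element core TGACNNNGC, bound by NRF2, matched in 1 gene, TRIB3, where 3 overlapping windows hold the same site, at positions 40, 29 and −8 from their start sites. In each of these windows 174 of the 250 bases before the start lie in exons of GENCODE 29. It matched in 13.3% of all windows.
TRIB3, chr20:381324-381353, plus strand: gtcggggcgcgGCCAGGTCAgatccctttt
The cAMP response element TGACGTCA was in none of the 14 windows and in 1.85% of all. The last 2 stretches, each the 250 bases before the start site with no exonic base, belong to PSAT1 and SESN2, which both fell with TNF and moved in opposite directions with IL1b, C5a and Epinephrine. Neither holds one of the 3 motifs, so they carry no capitals.
PSAT1, chr9:78296875-78297124, plus strand: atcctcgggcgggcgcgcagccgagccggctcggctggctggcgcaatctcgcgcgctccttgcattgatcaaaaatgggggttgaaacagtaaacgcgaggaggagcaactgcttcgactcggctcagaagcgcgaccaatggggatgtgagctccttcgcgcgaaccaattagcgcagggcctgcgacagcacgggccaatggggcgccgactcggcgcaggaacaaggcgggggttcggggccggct
SESN2, chr1:28259268-28259517, plus strand: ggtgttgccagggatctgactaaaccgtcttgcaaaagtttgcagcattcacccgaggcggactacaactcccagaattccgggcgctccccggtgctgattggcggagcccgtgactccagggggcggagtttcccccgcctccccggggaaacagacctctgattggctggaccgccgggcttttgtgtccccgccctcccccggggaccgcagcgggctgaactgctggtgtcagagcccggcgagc
A match describes letters only, and a window without one says nothing of the factor.

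Levels between genes were set side by side per kilobase of exon, over the merged exons that GENCODE 29 gives each gene. The order depends on that length, which was 9217 bases for PHGDH and 2414 for CTH. Before this scaling the Control mean of PHGDH, 3.47 CPM, was above that of CTH, 2.85 CPM. In Control, DDIT4 had the highest level, 289 CPM per kilobase, followed by SLC7A11 at 28.8, PSAT1 at 21.7, TRIB3 at 15.1, SESN2 at 11.1 and ATF5 at 9.35. CHAC1 at 2.76, CTH at 1.18, PHGDH at 0.377 and ASNS at 0.122 CPM per kilobase made up the low end.

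PHGDH (ENSG00000092621, chromosome 1, 119648411 to 119744226, plus strand, GRCh38) encodes phosphoglycerate dehydrogenase, the first enzyme of serine synthesis from glucose. Its CPM were 3.92, 3.58 and 2.93 in Control, 1.2, 1.5 and 1.39 in TNF, and 2.53, 2.27 and 2.29 in IL1b. In C5a they were 3.05, 3.12 and 2.66, and in Epinephrine 2.73, 3 and 3.54. The TNF libraries lay below all others, and the IL1b libraries lay below those of Control. PHGDH was 2.53-fold lower in TNF than in Control (log2 fold change −1.34, 95% interval −1.83 to −0.85, edgeR adjusted p = 9.04e-06). In IL1b the log2 fold change was −0.55 (−0.98 to −0.11, adjusted p = 0.0336), but without Control replicate 1 it was −0.44 with an adjusted p of 0.151, and leaving out Control replicate 2 or any 1 of the IL1b libraries also put the adjusted p above the threshold of 0.05. C5a (−0.23, −0.65 to 0.19) and Epinephrine (−0.16, −0.58 to 0.26) did not pass.

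Among the vesicle groups PHGDH was at 6.84, 5.62 and 5.53 CPM in EV-Control and at 6.91, 6.67 and 5.74 in EV-C5a. It was at 13.7, 11.8 and 14.8 CPM in EV-TNF, at 12.2, 11.9 and 12.1 in EV-IL1b, and at 13.1, 14.1 and 14.5 in EV-Epinephrine. The libraries of these last 3 groups all lay above those of EV-Control and EV-C5a, with no overlap. PHGDH was 2.23-fold higher in EV-TNF than in EV-Control (log2 1.16, 0.90 to 1.41, adjusted p = 1.8e-10), 2.01-fold higher in EV-IL1b (1.01, 0.75 to 1.27, adjusted p = 1.66e-08) and 2.32-fold higher in EV-Epinephrine (1.22, 0.96 to 1.47, adjusted p = 4.02e-11). In EV-C5a the difference was 0.11 on the log2 scale (−0.17 to 0.38, adjusted p = 0.923). Over the 10 groups the PHGDH mean spanned 10.2-fold, from 1.36 CPM in TNF to 13.9 CPM in EV-Epinephrine. In that order, C5a overlapped Epinephrine, Epinephrine overlapped Control, EV-Control overlapped EV-C5a, EV-IL1b overlapped EV-TNF, and EV-TNF overlapped EV-Epinephrine.

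Among the vesicle groups, other measures of the libraries were also higher where PHGDH rose, although the mitochondrial shares of EV-TNF and EV-Control overlapped. The mitochondrial share of counts was 1.99% to 2.49% in EV-Control and 2.07% to 2.11% in EV-C5a, against 2.36% to 2.81% in EV-TNF, 2.52% to 2.8% in EV-IL1b and 2.84% to 3.15% in EV-Epinephrine. The summed level of the 10 endothelial markers was 610 to 655 CPM in EV-Control and 610 to 630 in EV-C5a, against 702 to 729, 695 to 737 and 690 to 717 CPM in those 3 groups. Their part in the result was not tested.

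PSAT1 (ENSG00000135069, chromosome 9, 78297143 to 78330093, plus strand) encodes phosphoserine aminotransferase, the next enzyme of the same route. It followed another pattern: lower in TNF, higher in the other 3 direct groups, and close to EV-Control in all vesicle groups. Its CPM were 46.5, 47 and 48.6 in Control, 33.3, 34.4 and 35.2 in TNF, and 61.5, 50.8 and 52.9 in IL1b. In C5a they were 63.7, 62.5 and 67.9, and in Epinephrine 66.8, 70.9 and 67. None of the 4 stimulated groups overlapped Control. The log2 fold changes were −0.47 in TNF (−0.60 to −0.33, adjusted p = 4.53e-07), 0.23 in IL1b (0.09 to 0.36, adjusted p = 0.00443), 0.46 in C5a (0.33 to 0.59, adjusted p = 1.32e-06) and 0.54 in Epinephrine (0.41 to 0.67, adjusted p = 5.92e-08). The IL1b rise rested on IL1b replicate 1, without which it was 0.14 (adjusted p = 0.095), and it was also 0.14 when libraries were scaled by total counts only (adjusted p = 0.0642). PSAT1 lay between 54.6 and 64.6 CPM in all 15 vesicle libraries, and the 4 log2 fold changes against EV-Control were between −0.02 and 0.08, with 95% intervals that reached no further than −0.14 and 0.19.

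ASNS (ENSG00000070669, chromosome 7, 97852118 to 97872542, minus strand) encodes asparagine synthetase, a classic readout of ATF4. In these counts it was close to undetected, with 2 to 22 per library. The counts were 7, 14 and 9 in Control, 10, 3 and 11 in TNF, 4, 3 and 3 in IL1b, 9, 10 and 12 in C5a, and 19, 6 and 22 in Epinephrine. The vesicle groups had 15, 4 and 10 counts in EV-Control, 7, 6 and 2 in EV-TNF, 13, 13 and 4 in EV-IL1b, 12, 12 and 9 in EV-C5a, and 5, 4 and 4 in EV-Epinephrine. Only IL1b passed the test against its control (log2 −1.58, −2.96 to −0.21, adjusted p = 0.0395), on 10 summed counts against 30. The ratio of those sums was 0.323, with an exact 95% interval of 0.141 to 0.68 that covers counting error only. Leaving out either of Control replicates 2 and 3, or any 1 IL1b library, put the adjusted p between 0.0636 and 0.169, and testing all genes without the low-count filter gave 0.0837. The standard errors of its log2 fold changes in the other comparisons with a control were 0.51 to 0.64, against 0.044 to 0.07 for DDIT4. In addition, 44.6% of ASNS exon bases are also exonic in another gene on the same strand, ENSG00000284707, which had 4 to 24 counts and is annotated as a processed transcript. How the authors' counting treated reads in shared exons is not given in the sources used here. Its part in the low ASNS counts was not tested.

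SLC7A11 (ENSG00000151012, chromosome 4, 138164097 to 138242349, minus strand) encodes xCT, the light chain of the antiporter that imports cystine in exchange for glutamate. It rose with epinephrine and fell with the vesicles of epinephrine-, TNF- and IL-1β-treated cells. The CPM were 282, 277 and 276 in Control, 264, 246 and 264 in TNF, 293, 300 and 306 in IL1b, and 318, 326 and 330 in C5a. In Epinephrine they were 571, 454 and 560, above every other library of the study, with replicate 2 the lowest of the 3. The rise with epinephrine was 1.91-fold (log2 0.94, 0.82 to 1.05, adjusted p = 4.01e-13) and remained at 0.88 to 1.04 when any 1 library was left out. C5a gave 0.23 (0.12 to 0.35, adjusted p = 0.00332). TNF (−0.11, adjusted p = 0.117) and IL1b (0.12, adjusted p = 0.0992) did not pass, although neither overlapped Control. With total counts alone the TNF value was −0.38 (adjusted p = 6.14e-06), and in fits of only the groups compared TNF (−0.13, adjusted p = 0.004) and IL1b (0.11, adjusted p = 0.00549) both passed.

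In the vesicle groups SLC7A11 was at 384, 322 and 290 CPM in EV-Control and at 332, 314 and 327 in EV-C5a. It was at 201, 212 and 198 CPM in EV-TNF, at 214, 227 and 228 in EV-IL1b, and at 216, 203 and 207 in EV-Epinephrine. These last 3 groups lay below all other libraries, and the EV-Control libraries were the most spread, with replicate 1 the highest. SLC7A11 was 1.63-fold lower in EV-TNF than in EV-Control (log2 −0.71, −0.89 to −0.52, adjusted p = 0.00018), 1.49-fold lower in EV-IL1b (−0.58, −0.76 to −0.39, adjusted p = 0.000758) and 1.59-fold lower in EV-Epinephrine (−0.67, −0.85 to −0.48, adjusted p = 0.000185). Without EV-Control replicate 1 the 3 values were −0.59, −0.46 and −0.55 and all passed. In a fit of only EV-IL1b and EV-Control the value was −0.57 with an adjusted p of 0.058.

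An antisense gene on the other strand, SLC7A11-AS1, shares 8.97% of the exon bases of SLC7A11 and moved with it in several groups. Its counts were 16, 7 and 18 in Control and 135, 45 and 125 in Epinephrine (log2 2.80, adjusted p = 3.61e-07). They were 37, 84 and 57 in EV-Control and 8, 11 and 11 in EV-Epinephrine (log2 −2.57, adjusted p = 2.51e-08). In TNF, where SLC7A11 did not pass, SLC7A11-AS1 rose by 2.21 on the log2 scale (adjusted p = 6.59e-06). Its highest count was 135, against 3478 to 12203 for SLC7A11, and reads of the pair cannot be told apart without knowing whether counting used strand.

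CTH (ENSG00000116761, chromosome 1, 70411218 to 70439851, plus strand) encodes cystathionine gamma-lyase, which makes cysteine from cystathionine. It had 34 to 122 counts per library. EV-Control was highest, at 7.32, 5.85 and 3.78 CPM, and next came EV-C5a at 4.4, 4.11 and 4.7. EV-TNF was at 2.95, 1.79 and 2.39 CPM, EV-IL1b at 2.25, 1.83 and 3.02, and EV-Epinephrine at 3.53, 3.36 and 2.45. EV-Control was more spread than any other group, yet none of these 3 groups reached its lowest library. The log2 fold changes were −1.24 in EV-TNF (−1.70 to −0.79, adjusted p = 3.94e-05), −1.25 in EV-IL1b (−1.71 to −0.79, adjusted p = 3.76e-05) and −0.85 in EV-Epinephrine (−1.28 to −0.41, adjusted p = 0.00291). Without EV-Control replicate 1, the highest library, they were −1.02, −1.03 and −0.62, and the last no longer passed (adjusted p = 0.0612). In the direct groups CTH was between 2.02 and 4.02 CPM, and the 4 log2 fold changes were between −0.20 and 0.21, none past the threshold.

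CHAC1 (ENSG00000128965, chromosome 15, 40952962 to 40956519, plus strand) encodes an enzyme that degrades glutathione. Its CPM were 5.5, 6.52 and 5.01 in Control, 3.41, 5.37 and 3.58 in TNF, and 8.81, 6.9 and 5.69 in Epinephrine. TNF and Control overlapped, and so did Epinephrine and Control. Only TNF passed, at −0.45 on the log2 scale (−0.84 to −0.06, adjusted p = 0.0456). That call was lost with DESeq2 (adjusted p = 0.0534) and without any of Control replicates 1 and 2 and TNF replicates 1 and 3 (adjusted p of 0.0731 to 0.199). Across the vesicle groups CHAC1 ran from 2.81 to 5.19 CPM, and none of the 4 comparisons passed.

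SESN2 (ENSG00000130766, chromosome 1, 28259527 to 28282491, plus strand) encodes sestrin 2, a leucine sensor that restrains mTOR complex 1. Control held its highest libraries, at 39.5, 39.9 and 35.8 CPM. TNF was at 25.4, 24.8 and 28.1 CPM, IL1b at 22.5, 20.8 and 21.6, C5a at 26.7, 26.2 and 27.5, and Epinephrine at 27.5, 25.9 and 25.8. No stimulated library reached the lowest of Control. The log2 fold changes were −0.56 in TNF (−0.71 to −0.40, adjusted p = 1.01e-07), −0.82 in IL1b (−0.98 to −0.66, adjusted p = 4.64e-11), −0.51 in C5a (−0.66 to −0.36, adjusted p = 2.84e-06) and −0.53 in Epinephrine (−0.69 to −0.38, adjusted p = 1.15e-06). The vesicle groups, EV-Control included, ran from 22.7 to 31.4 CPM, all below Control, and each of the 4 overlapped EV-Control. Their log2 fold changes against EV-Control were between −0.15 and 0.08, none past the threshold. Without EV-Control replicate 1, its lowest library, EV-Epinephrine was at −0.25 and passed (adjusted p = 0.03).

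DDIT4 (ENSG00000168209, chromosome 10, 72273920 to 72276036, plus strand) encodes REDD1, another inhibitor of mTOR complex 1. Its CPM were 577, 597 and 611 in Control, 490, 490 and 502 in TNF, 423, 419 and 392 in IL1b, 492, 495 and 457 in C5a, and 395, 429 and 388 in Epinephrine. All 12 stimulated libraries lay below Control. The log2 fold changes were −0.27 in TNF (−0.36 to −0.18, adjusted p = 3.26e-06), −0.52 in IL1b (−0.61 to −0.43, adjusted p = 4.49e-12), −0.30 in C5a (−0.39 to −0.21, adjusted p = 4.01e-06) and −0.55 in Epinephrine (−0.64 to −0.46, adjusted p = 9.15e-12).

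With vesicles, DDIT4 was at 624, 620 and 621 CPM in EV-Control and at 744, 703 and 702 in EV-Epinephrine, with no overlap. The difference was 0.20 on the log2 scale (0.05 to 0.36) and did not pass (adjusted p = 0.0668). It passed under 7 other settings, among them DESeq2 (adjusted p = 0.0029) and a fit of only the groups compared (adjusted p = 1.03e-05). EV-TNF (−0.06), EV-IL1b (−0.12) and EV-C5a (0.14) did not pass. EV-IL1b passed without EV-IL1b replicate 3 (−0.19, adjusted p = 0.0439) and without the low-count filter (−0.13, adjusted p = 0.0124). In GENCODE 29, 41.2% of the exon bases of DDIT4 are also exonic in an antisense gene, DDIT4-AS1. That gene was not among the genes kept from the read counts, so it could not be analysed here.

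TRIB3 (ENSG00000101255, chromosome 20, 362835 to 397559, plus strand) encodes a pseudokinase that restrains ATF4 and DDIT3. It varied least, by 1.26-fold over the 10 group means. Its CPM were 51.3, 53.9 and 50 in Control, 40.1, 39.4 and 43.8 in TNF, 41.2, 42.9 and 45 in IL1b, 46.6, 42.1 and 45.7 in C5a, and 44, 45.8 and 44 in Epinephrine. All 4 stimulated groups lay below Control. The log2 fold changes were −0.33 in TNF (adjusted p = 5.57e-05), −0.26 in IL1b (adjusted p = 0.00123), −0.20 in C5a (adjusted p = 0.0225) and −0.21 in Epinephrine (adjusted p = 0.0166). The last 2 calls depended on single libraries. C5a did not pass without Control replicate 1 (−0.20, adjusted p = 0.0587), Control replicate 2 (−0.17, 0.118 as adjusted p) or C5a replicate 2 (−0.15, adjusted p = 0.15), or without the low-count filter (adjusted p = 0.0587). Epinephrine did not pass without Control replicate 2 (−0.17, adjusted p = 0.0979) or Epinephrine replicate 3 (−0.19, adjusted p = 0.0617). The vesicle libraries ran from 42.9 to 52.7 CPM, and log2 fold changes were between −0.04 and 0.05.

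ATF5 (ENSG00000169136, chromosome 19, 49928702 to 49933935, plus strand) encodes a transcription factor related to ATF4. It was highest in TNF, at 32.9, 38.1 and 35.8 CPM, against 28.6, 27.2 and 27 in Control (log2 0.37, 0.20 to 0.54, adjusted p = 0.00028). The groups did not overlap. When libraries were scaled by total counts alone, the value was 0.09 (adjusted p = 0.33). A gene on the other strand, NUP62, which shares 21.2% of the exon bases of ATF5, rose from 96.4, 95 and 98.3 CPM in Control to 154, 156 and 158 in TNF (log2 0.69, adjusted p = 3.47e-15). IL4I1, which shares 2.54%, had 23, 23 and 34 counts in Control and 679, 900 and 820 in TNF (log2 5.02, adjusted p = 6.08e-24). Their part in the ATF5 value was not tested. In C5a, ATF5 was at 22.7, 20.9 and 24.2 CPM (log2 −0.28, −0.45 to −0.11, adjusted p = 0.0149), a call lost without Control replicate 1 (adjusted p = 0.0787) or C5a replicate 2 (adjusted p = 0.105). The vesicle libraries ran from 22.8 to 30.5 CPM, and no vesicle comparison passed.

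**Figure D2:**
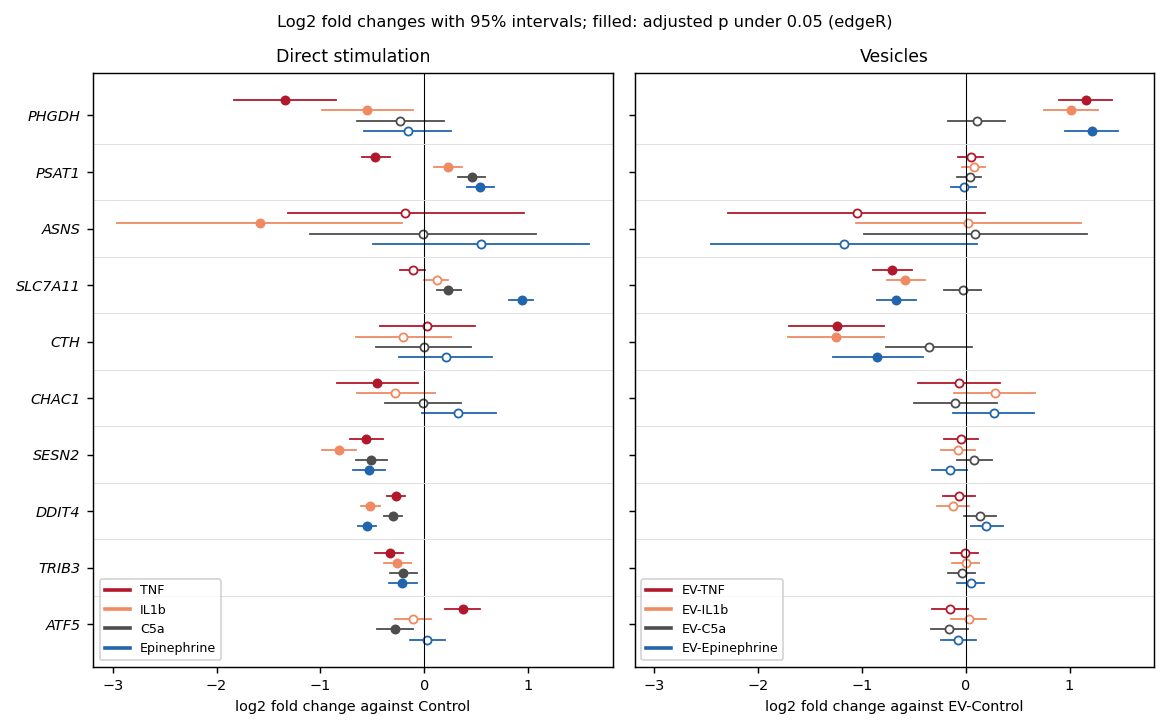
Log2 fold change of each gene (y) against Control (left) or EV-Control (right) on the x axis, with 95% intervals over 3 against 3 libraries; colours are stimuli, and filled points had an adjusted p under 0.05. SESN2, DDIT4 and TRIB3 sit left of 0 for all 4 direct stimuli, while PHGDH sits at 1.01 to 1.22 for 3 of the 4 vesicle groups.

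Counted over the 10 genes, TNF gave 1 higher (ATF5), 6 lower and 3 not passed. Of all genes tested 52.7% passed, 27.5% higher and 25.3% lower. The libraries of TNF and Control did not overlap for 7 of the 10, against 59.6% of all genes. With total counts alone the median of all genes moved from −0.012 to −0.288 on the log2 scale, and 0 of the 10 were higher and 7 lower. IL1b gave 1 higher (PSAT1), 5 lower and 4 not passed, beside 46.6% of all genes (24% higher and 22.6% lower), and 7 without overlap beside 56.3%. Without IL1b replicate 1 only 3 passed, all of them lower.

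C5a gave 2 higher, 4 lower and 4 not passed, beside 22.6% of all genes (11.8% higher and 10.8% lower), with 6 without overlap beside 40.4%. Epinephrine gave 2 higher, 3 lower and 5 not passed, beside 25.2% of all genes (13.5% higher and 11.8% lower), with 5 without overlap beside 33.9%. The median log2 fold change of the 10 genes was −0.30 in TNF, −0.27 in IL1b, −0.11 in C5a and 0.12 in Epinephrine, beside −0.01, −0.01, −0.00 and 0.01 for all genes. Marker lists of other cell types also moved in the direct groups. The 5 epithelial markers summed to 265 to 287 CPM in Control, 164 to 177 in TNF and 354 to 365 in C5a. That sum was mostly KRT18, with a mean of 263 CPM over the libraries, while EPCAM and CDH1 were at 0.0547 and 0.0701 CPM. The 8 pericyte markers summed to 95.4 to 102 CPM in Control and 62.3 to 63.5 in TNF. The endothelial sum was 953 to 996 CPM in Control, 1003 to 1052 in TNF, 710 to 735 in IL1b, 719 to 750 in C5a and 765 to 835 in Epinephrine. Their part in these results was not tested.

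EV-TNF gave 1 higher (PHGDH), 2 lower (SLC7A11 and CTH) and 7 not passed, beside 13.3% of all genes (5.9% higher and 7.42% lower), and 3 without overlap beside 27.1%. EV-IL1b passed for the same 3 genes in the same directions, beside 14.6% of all genes (6.49% higher and 8.14% lower), with 3 without overlap beside 28.5%. EV-Epinephrine did so too, beside 19.7% of all genes (9.12% higher and 10.5% lower), with 4 without overlap beside 34.1%. EV-C5a gave 0 of 10 by edgeR and by DESeq2, and 0 of 10 at an unadjusted p under 0.05. The lowest unadjusted edgeR p was 0.0742, for ATF5. In that comparison 0.0503% of all genes passed, or 8 of 15918 (0.0126% higher and 0.0377% lower), and 0 of the 10 were without overlap beside 10.9%. The medians of the 10 genes were −0.06 in EV-TNF, 0.01 in EV-IL1b, 0.00 in EV-C5a and −0.05 in EV-Epinephrine.

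The direct stimuli were also compared with each other. IL1b against TNF gave 3 higher, 3 lower and 4 not passed among the 10 genes, beside 41.4% of all genes (19.9% higher and 21.4% lower), and 6 without overlap beside 51.5%. PSAT1 (log2 0.69, adjusted p = 1.23e-10), PHGDH (0.79, adjusted p = 0.00884) and SLC7A11 (0.23, adjusted p = 0.00217) were higher in IL1b. ATF5 (−0.47, adjusted p = 1.4e-05), SESN2 (−0.26, adjusted p = 0.00786; 0.0705 without TNF replicate 3) and DDIT4 (−0.25, adjusted p = 1.47e-05) were lower. Under total counts alone the median of all genes was 0.205, and SESN2 (−0.07, adjusted p = 0.496) and DDIT4 (−0.06, adjusted p = 0.254) no longer passed, while TRIB3 (0.27, adjusted p = 0.000926) did. Epinephrine against C5a gave 2 higher, SLC7A11 (log2 0.70, adjusted p = 1.2e-10) and ATF5 (0.31, adjusted p = 0.00809), and 1 lower, DDIT4 (−0.25, adjusted p = 6.42e-05). Of all genes 17.1% passed (8.98% higher and 8.08% lower), and 3 of the 10 were without overlap beside 29.8%. The ATF5 call was lost without C5a replicate 2 (adjusted p = 0.0668) or Epinephrine replicate 3 (adjusted p = 0.0503). PSAT1 differed by 0.08 between these groups, with an interval of −0.05 to 0.20.

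Whether the vesicles of a treated cell moved a gene as the treatment itself did was tested as a difference between the responses, in a fit of all 30 libraries. The differences for the 4 stimuli share the EV-Control and Control libraries, so they are not independent. For TNF, 5 genes had a higher vesicle response, 3 a lower one and 2 did not pass, beside 44.7% of all genes (21.3% higher and 23.4% lower). The largest difference among the 10 was that of PHGDH, 2.50 on the log2 scale (1.99 to 3.00, adjusted p = 2.03e-13), since PHGDH fell with TNF and rose with EV-TNF. CTH (−1.28, adjusted p = 0.000876) and SLC7A11 (−0.60, adjusted p = 9.96e-05) had the lower vesicle response. For IL1b, 4 were higher, 2 lower and 4 not passed, beside 35.2% of all genes (16.9% higher and 18.3% lower), with PHGDH at 1.57 (1.11 to 2.02) and SESN2 at 0.76 (0.53 to 0.99). With total counts alone the medians of all genes in these 2 comparisons were 0.313 and 0.113, and the ATF5 difference for TNF, −0.52 (adjusted p = 0.000256), became −0.23 (adjusted p = 0.0982).

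For C5a, 2 were higher, SESN2 at 0.60 and DDIT4 at 0.44, 1 was lower, PSAT1 at −0.41, and 7 did not pass, beside 11.9% of all genes (5.87% higher and 6.05% lower). For Epinephrine, 4 were higher, 3 lower and 3 not passed, beside 24.2% of all genes (11.7% higher and 12.5% lower), and without EV-Control replicate 1 the number that passed fell from 7 to 4. SLC7A11 had the largest difference of the 10 that passed, −1.59 (−1.82 to −1.37, adjusted p = 1.85e-10), a rise of 0.94 with epinephrine set against −0.67 with its vesicles. PHGDH was at 1.38 (0.94 to 1.82), DDIT4 at 0.76 (0.61 to 0.92) and PSAT1 at −0.55 (−0.72 to −0.37). ASNS and CHAC1 passed for none of the 4 stimuli, although with total counts alone CHAC1 passed for TNF (0.68, adjusted p = 0.0329) and IL1b (0.65, adjusted p = 0.0496). Differences of DDIT4 for TNF, of TRIB3 and CTH for IL1b, and of TRIB3, SESN2 and CTH for Epinephrine were each lost when some single library was left out, with adjusted p of up to 0.165.

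**Figure D3:**
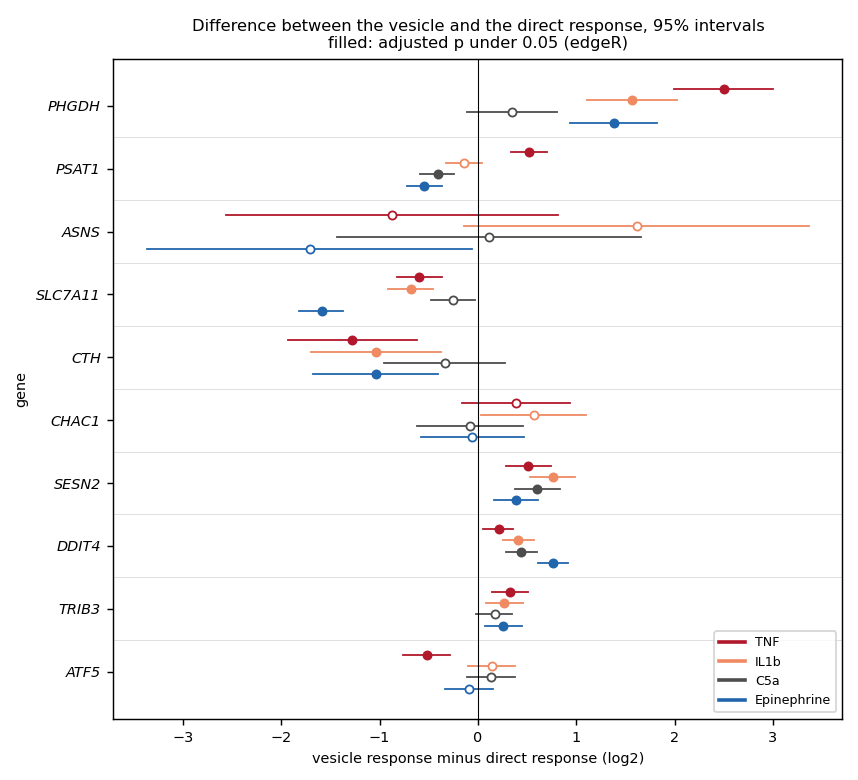
Vesicle response minus direct response on the log2 scale (x) for each gene (y), with 95% intervals from a fit of all 30 libraries; colours are stimuli and filled points had an adjusted p under 0.05. PHGDH is right of 0 by 1.38 to 2.50 for TNF, IL1b and Epinephrine, and SLC7A11 reaches −1.59 for Epinephrine.

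The control groups themselves differed. Of the 10 genes, 4 were higher in EV-Control than in Control, 2 lower and 4 not passed, beside 21.9% of all genes (12.1% higher and 9.8% lower), and 8 were without overlap beside 34.9%. CTH was higher by 0.98 on the log2 scale (0.54 to 1.42, adjusted p = 0.000441), PHGDH by 0.78 (0.46 to 1.10, adjusted p = 0.00011), PSAT1 by 0.30 (0.18 to 0.43, adjusted p = 0.000185) and SLC7A11 by 0.25 (0.09 to 0.41, adjusted p = 0.0196). SESN2 (−0.45, −0.61 to −0.30, adjusted p = 6.54e-06) and CHAC1 (−0.56, −0.94 to −0.18, adjusted p = 0.0243) were lower. The SLC7A11 call was lost in a fit of only these groups (adjusted p = 0.193) and without Control replicate 2 or 3 or EV-Control replicate 1 (0.0509 to 0.101 as adjusted p). That of CHAC1 was lost without Control replicate 2 or EV-Control replicate 1 or 3 (0.0727 to 0.152). The summed endothelial markers were at 953 to 996 CPM in Control and 610 to 655 in EV-Control. Whether the groups were cultured together is not given beyond the shared batch number, so an effect of vesicles and of a separate culture cannot be told apart here.

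The rest of the pathway was read from lists of other genes. ATF4 itself was at 302 ± 1.9 CPM in Control (SD, n = 3) and rose with TNF to 381 ± 8.85 (log2 0.34, adjusted p = 7.81e-08). It fell with C5a to 255 ± 6.17 (log2 −0.23, adjusted p = 0.000199) and, in EV-Epinephrine, to 243 ± 4.19 from 290 ± 21.1 in EV-Control (log2 −0.25, adjusted p = 5.92e-05). The other comparisons of ATF4 with a control did not pass, with log2 fold changes between −0.09 and 0.04. The TNF value of ATF4 is close in size to the shift of all genes by −0.288 under total counts. ATF4 mRNA rose with TNF, where ATF5 rose and PHGDH, PSAT1, CHAC1, SESN2, DDIT4 and TRIB3 fell. It fell with C5a, where SESN2, DDIT4, TRIB3 and ATF5 fell and PSAT1 and SLC7A11 rose. In EV-Epinephrine, where ATF4 mRNA fell too, SLC7A11 and CTH fell and PHGDH rose. ATF4 protein is set largely by translation, and mRNA counts do not measure it. DDIT3, the factor CHOP that ATF4 induces, was at 7.29 ± 0.827 CPM in Control and fell in IL1b to 4.29 ± 0.862 (log2 −0.75, adjusted p = 0.000575), and passed in none of the others.

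ATF3, an immediate stress factor, ranged widely. It was at 232 ± 42.3 CPM in Control, 806 ± 161 in TNF, 50 ± 3.72 in IL1b, 37.4 ± 3.66 in C5a and 353 ± 60.1 in Epinephrine, and all 4 differences passed (adjusted p of 2.75e-06 to 0.0252). EV-Control was at 589 ± 68.6 CPM and EV-Epinephrine at 119 ± 16 (log2 −2.31, adjusted p = 4.37e-06). EV-TNF also passed (−0.60, adjusted p = 0.0384), while EV-IL1b (−0.48, adjusted p = 0.0862) and EV-C5a (0.10) did not. CEBPB, a dimer partner of ATF4, rose with TNF (1.25, adjusted p = 3.82e-20), IL1b (0.89, adjusted p = 2.19e-15) and Epinephrine (0.18, adjusted p = 0.0197), and fell in EV-TNF (−0.30), EV-IL1b (−0.37) and EV-Epinephrine (−0.37). NUPR1, a stress-induced cofactor, was at 1.5 ± 0.767 CPM in Control and lower in IL1b (−1.12, adjusted p = 0.0268) and C5a (−1.38, adjusted p = 0.0169).

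Of 13 eIF2α kinases, phosphatases and stress transcription factors, 8 rose and 2 fell with TNF, and 4 rose and 5 fell with IL1b. C5a gave 2 and 4, and Epinephrine 4 and 1. Of all genes tested, 52.7%, 46.6%, 22.6% and 25.2% passed for these stimuli, and 13.3%, 14.6% and 19.7% for EV-TNF, EV-IL1b and EV-Epinephrine. The counts of every list are to be read beside these shares. With vesicles the counts were 1 and 4 in EV-TNF, 1 and 4 in EV-IL1b and 1 and 7 in EV-Epinephrine. EIF2AK2, the kinase PKR that senses double-stranded RNA, was the 1 that rose in each of those 3, by 0.34 (adjusted p = 2.62e-11), 0.26 (adjusted p = 4.84e-08) and 0.11 (adjusted p = 0.0148) on the log2 scale. It rose by 1.18 with TNF and 0.84 with IL1b. PPP1R15A, the stress-induced phosphatase subunit GADD34, fell with C5a from 177 to 62 CPM (log2 −1.50, adjusted p = 1.66e-05) and also with IL1b (−1.38, adjusted p = 8.27e-06).

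Amino acid transporters were tested for 9 of 10 genes listed. They gave 4 higher and 4 lower in TNF, 5 and 1 in IL1b, 4 and 2 in C5a, and 4 and 0 in Epinephrine. EV-TNF gave 0 and 4, EV-IL1b 1 and 3, and EV-Epinephrine 1 and 5. SLC38A2 (SNAT2), a neutral amino acid carrier and known ATF4 target, rose with all 4 direct stimuli (log2 1.02, 0.55, 0.13 and 0.44). So did the glycine transporter SLC6A9 (1.32, 0.59, 0.51 and 0.61). Its level was low, with 4.35 CPM in Control and 6.17 in C5a (0.21 to 0.81, edgeR adjusted p = 0.00933). SLC43A1, a leucine carrier, fell with TNF from 13.6 to 4.36 CPM (log2 −1.65, adjusted p = 5.19e-13). SLC3A2, the heavy chain that pairs with xCT, rose with Epinephrine (0.17, adjusted p = 0.00368), fell with TNF (−0.17, adjusted p = 0.00159) and C5a (−0.22, adjusted p = 0.000433), and did not pass in IL1b (−0.10). In the vesicle groups it fell in EV-TNF (−0.26), EV-IL1b (−0.21) and EV-Epinephrine (−0.27), with adjusted p of 2.18e-08 to 6.28e-06, and was at −0.04 in EV-C5a. SLC7A5 (LAT1), another partner of SLC3A2, fell in the same 3 vesicle groups, to log2 values of −0.52, −0.46 and −0.43 (adjusted p of 0.000996 to 0.00228), and with TNF (−0.20) and IL1b (−0.21).

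Serine, glycine and folate enzymes, 8 genes, gave 4 higher and 2 lower in TNF, 4 and 1 in IL1b, 3 and 0 in C5a, and 3 and 0 in Epinephrine. PSPH, which completes serine synthesis after PHGDH and PSAT1, fell with TNF (log2 −0.58, adjusted p = 4.23e-07), as PHGDH and PSAT1 did. MTHFD1L, a mitochondrial folate enzyme, rose with all 4 stimuli, by 0.78, 1.01, 0.23 and 0.60. With vesicles 0 of 8 passed in EV-TNF by edgeR and by DESeq2, and 0 at an unadjusted p under 0.05, while 13.3% of all genes passed the adjusted edgeR test. EV-IL1b gave 1 higher, MTHFD1L (0.24), and EV-Epinephrine 1 lower.

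The list of 11 cysteine and glutathione enzymes and NRF2 targets is the one that SLC7A11 belongs with by function. In Epinephrine 6 rose and 0 fell, beside 13.5% and 11.8% of all genes, among them OSGIN1 (log2 0.79, adjusted p = 1.25e-06), GCLM, a subunit of the enzyme that begins glutathione synthesis (0.76, adjusted p = 9.82e-14), and NQO1 (0.46, adjusted p = 3.28e-10). In the vesicle groups 6 fell in EV-TNF, 6 in EV-IL1b and 5 in EV-Epinephrine, and none rose. Of all genes 7.42%, 8.14% and 10.5% fell there. TXNRD1, thioredoxin reductase, was at −0.36, −0.36 and −0.57, NQO1 at −0.24, −0.26 and −0.51, and GCLM at −0.24, −0.22 and −0.28. In EV-C5a 0 of 11 passed, by edgeR and by DESeq2, and 0 had an unadjusted p under 0.05. TNF gave 3 higher and 3 lower, IL1b 3 and 2, and C5a 5 and 1. SLC38A2, PSPH and TXNRD1 were chosen for naming after their values were seen.

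**Figure D4:**
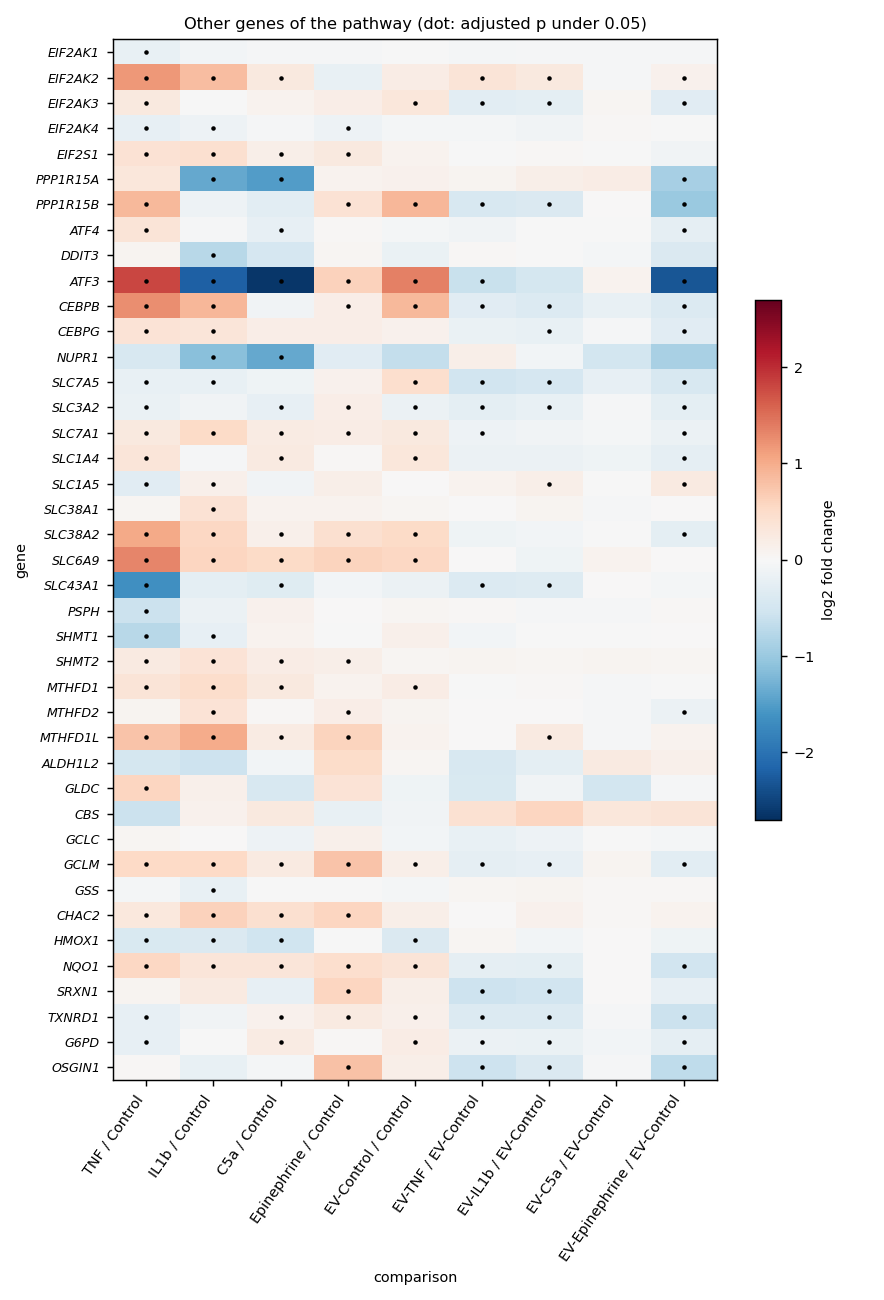
Log2 fold change (colour, blue lower and red higher) of the other regulators, transporters, serine and folate enzymes and glutathione genes (rows) in 9 comparisons with a control (columns), each of 3 against 3 libraries; dots mark an adjusted p under 0.05. ATF3 has the strongest colours, from −2.62 in C5a to 1.80 in TNF, and the EV-C5a column has no dot.

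Other targets of glucocorticoids and hypoxia, to which DDIT4 also answers, were listed as well. Of 10 such genes, TNF gave 5 higher and 3 lower, IL1b 4 and 3, C5a 1 and 4, and Epinephrine 2 and 3. Of 9 tested with vesicles, EV-TNF gave 0 and 6, EV-IL1b 0 and 6, and EV-Epinephrine 1 and 6. PER1, a glucocorticoid-responsive clock gene, fell with all 4 direct stimuli (log2 −0.46, −1.70, −1.71 and −0.77) and in EV-TNF (−1.04), EV-IL1b (−0.97) and EV-Epinephrine (−1.38), where DDIT4 did not pass. TSC22D3, another glucocorticoid target, fell in IL1b (−1.51), C5a (−1.48) and Epinephrine (−0.53), and was at 0.00 in TNF. ADM, a hypoxia target, rose with TNF (1.67) and IL1b (1.19), where DDIT4 was lower. It also rose in EV-Epinephrine (0.50), where DDIT4 was at 0.20 and did not pass. ANKRD37, another hypoxia target, fell in EV-TNF (−0.74) and EV-IL1b (−0.67). Any link between these genes and DDIT4 was not tested. Of 8 p53 targets, set beside SESN2, 4 rose and 4 fell with TNF, 2 rose and 6 fell with IL1b, 4 fell with C5a, and 1 rose and 4 fell with Epinephrine. EV-TNF gave 0 higher and 2 lower, EV-IL1b 0 and 4, and EV-Epinephrine 0 and 7, where SESN2 was at −0.15 (adjusted p = 0.209).

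Chaperones and other genes of the ATF6 and XBP1 arms of the unfolded protein response, 12 in all, gave 11 higher in TNF, 9 higher and 1 lower in IL1b, 1 and 3 in C5a, and 8 and 1 in Epinephrine. EV-TNF gave 6 and 2, EV-IL1b 6 and 1, and EV-Epinephrine 7 and 2. HSPA5, the chaperone BiP, rose with all 4 stimuli (log2 1.48, 1.00, 0.23 and 0.60) and in EV-TNF (0.39), EV-IL1b (0.55) and EV-Epinephrine (0.38). Secreted and other stress targets, 6 tested, gave 3 higher and 2 lower in TNF, 4 and 1 in IL1b, 0 and 3 in C5a, and 3 and 1 in Epinephrine. GDF15, a stress hormone, fell with all 4 direct stimuli (−0.90, −0.91, −0.98 and −0.74) and rose in EV-TNF (0.37, adjusted p = 4.15e-06) and EV-IL1b (0.21, adjusted p = 0.013). STC2, a secreted glycoprotein and known ATF4 target, rose with TNF from 50.4 to 216 CPM (log2 2.10, adjusted p = 3.51e-28), and TRIB1, a relative of TRIB3, rose with TNF (2.07) and Epinephrine (1.63). Of 4 other brakes of mTOR complex 1 and translation tested in the direct groups, 0 rose and 3 fell with TNF, and of 6 proline, alanine and aspartate enzymes 1 rose and 1 fell. Scaling by total counts changed the balance of the lists in TNF: the regulators gave 4 higher and 2 lower, the transporters 2 and 5, the serine enzymes 1 and 4, and the glutathione genes 2 and 6.

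Across the 10 group means of log2 CPM the 10 genes had 45 pairs. The median Pearson's r was 0.08, with 8 pairs over 0.5 and 4 under −0.5. PHGDH and DDIT4 were the most alike (0.704) and PSAT1 and ATF5 the least (−0.783). These are descriptions over 10 points that share libraries, depth and controls. Averaged over the 10 genes, each standardised over the groups, the level was highest in Control (0.46) and Epinephrine (0.41) and lowest in IL1b (−0.79) and TNF (−0.54). Among 10542 genes with enough counts, the nearest to that averaged pattern was NDUFB6, a subunit of respiratory complex I (r = 0.963), followed by TMEM230 (0.952) and BAD (0.943). Over the 30 libraries NDUFB6 reached 0.624, and TIMP2 was the nearest (0.87). For single genes the nearest were CPS1 for PHGDH (r = 0.991), NLGN2 for DDIT4 (0.986), PALMD for SLC7A11 (0.98), MCM8 for PSAT1 (0.972), SUN2 for SESN2 (0.956) and PRMT9 for CTH (0.951). Over the 30 libraries these pairs had r from 0.761 (PRMT9) to 0.959 (CPS1). Another gene was then nearest to PHGDH (DUSP4), SLC7A11 (ADGRG6), PSAT1 (FHL2) and CTH (SYAP1). For ASNS the nearest was PHPT1 (0.847), at 0.0655 over the 30 libraries. TRIB3 was nearest to CRACR2B (0.972), ATF5 to RILPL1 (0.968) and CHAC1 to RNF14 (0.913). Over the 30 libraries these 3 pairs had 0.803, 0.609 and 0.646. Each nearest gene was picked as the highest r of many, which raises its r.

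**Figure D5:**
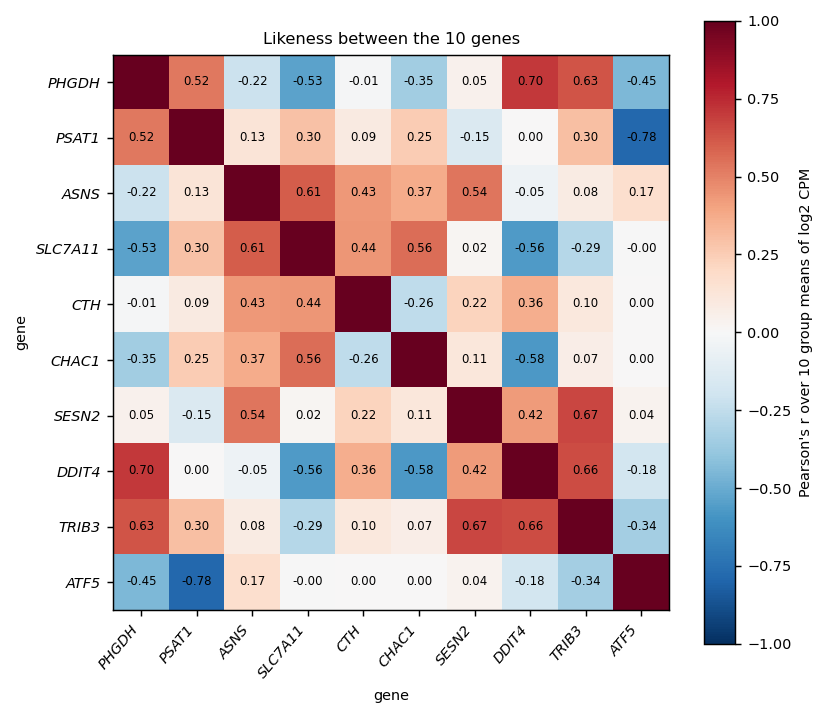
Pearson's r between each pair of the 10 genes over the 10 group means of log2 CPM, red for positive and blue for negative values. The median of the 45 pairs is 0.08, with values from −0.783 for PSAT1 and ATF5 to 0.704 for PHGDH and DDIT4.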

How the data were processed

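RNA was sequenced from 30 hCMEC/D3 libraries, 10 groups of 3. The authors deposited raw read counts per gene; per the submitters' processing notes hg38, STAR, FastQC, DESeq2 and R 4.4.1 were used. The counting tool, its annotation and its use of strand are not given in the sources used here. Of 63147 lines, 4 without a gene ID (0.000789% to 0.00164% of counts) and 2 genes with broken records were left out, and 3 repeated IDs were kept once. Groups came from the labels.

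Counts were tested with edgeR 4.0.16 (quasi-likelihood, TMM factors, filterByExpr) in R 4.3.3, in fits of the 15 direct (15908 genes), 15 vesicle (15918) or all 30 libraries (16691, for EV-Control against Control and the differences between responses). Adjusted p are Benjamini-Hochberg over all genes, with a threshold of 0.05, and intervals are 95%. The fits were tested on simulated data. Exon overlaps came from GENCODE 29. Alternatives were other scaling, filters, DESeq2 1.42.0, a replicate block, other sets of libraries and leaving out each library. The genes and lists were chosen with earlier results of these data known. All 10 genes, ATF4, DDIT3, ATF3, CEBPB, NUPR1, SLC3A2 and SLC7A5 were named throughout. From the other lists, each comparison could name the 3 strongest rises and 3 strongest falls past the threshold, given non-overlapping groups and a mean of 5 CPM or more in the higher one. Genes so named for a comparison were also given in other comparisons, and not every gene that could be named was. Likeness was Pearson's r over group means of log2 CPM.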

Additional observations from a re-analysis of the deposited data

Results flagged for a closer look

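For 24 of the 40 combinations of gene and stimulus, the response to vesicles differed from the response to the stimulus itself by the interaction test of edgeR. These were 8 of 10 genes for TNF, 6 for IL1b, 3 for C5a and 7 for Epinephrine, beside 44.7%, 35.2%, 11.9% and 24.2% of all genes. These are log2 differences, vesicle response minus direct response. For all 4 stimuli they use the same EV-Control and Control libraries, so they are not independent. A gap between these controls enters each of them. SESN2 was at 28 CPM in EV-Control and 38.4 in Control, and CTH at 5.65 and 2.85. PHGDH stood at 2.50 for TNF, 1.57 for IL1b and 1.38 for Epinephrine. SLC7A11 stood at −0.60, −0.68 and −1.59 for the same stimuli, and CTH at −1.28, −1.04 and −1.04. SESN2 differed for all 4 stimuli, by 0.51 (TNF), 0.76 (IL1b), 0.60 (C5a) and 0.39 (Epinephrine). DDIT4 did as well, by 0.21, 0.41, 0.44 and 0.76 in that order. In these 2 genes the direct responses were falls, and no vesicle response passed in the main fit. DDIT4 passed in EV-Epinephrine under 7 of 14 alternatives, and in EV-IL1b under 2. SESN2 passed in EV-Epinephrine under 1. PSAT1 differed by 0.52 for TNF, −0.41 for C5a and −0.55 for Epinephrine. TRIB3 differed by 0.33 for TNF, 0.27 for IL1b and 0.26 for Epinephrine, and ATF5 by −0.52 for TNF only among the 4.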

How the results depend on the processing

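Of 150 results, 10 genes in 15 comparisons, 72 passed. Of these 50 passed under every alternative run and 22 were lost under at least 1, while 10 of the 78 others passed under at least 1, and 0 reversed. Leaving out libraries gave 49 lost and 4 gained calls in 1140 refits, total counts alone 5 and 5, and relative log expression factors none. IL1b had 6 of the 10 genes called and 3 to 5 without 1 library, with 3 without IL1b replicate 1. The Epinephrine difference between responses had 7, and 4 to 7 without 1 library, with 4 without EV-Control replicate 1. The number of all genes called in EV-C5a, 8, was 5 with total counts only, 73 without the low-count filter, and 3 each with a mean of at least 50 counts, with only the groups compared and with all 30 libraries. It was 2 to 175 without 1 library, with 175 without EV-Control replicate 3. The causes were not tested. With total counts the share of calls that were higher moved from 52.1% to 22.7% in TNF, from 51.5% to 38.6% in IL1b, from 48.1% to 76.1% in IL1b against TNF, from 25% to 40% in EV-C5a, from 46.4% to 60.2% in EV-Epinephrine, from 55.3% to 42.6% in EV-Control against Control, from 47.7% to 76.7% in the TNF difference and from 48.1% to 62.4% in the IL1b difference. Libraries with the same replicate number did not deviate together (correlations of −0.0393 to 0.0286 over 11 comparisons), so the numbers were not read as pairs. With the replicate block the number of the 10 genes called changed in 1 comparison, EV-Epinephrine, from 3 to 4 (DDIT4, 0.21, adjusted p = 0.0446), and all genes called in TNF went from 8388 to 8339. Low counts limit ASNS, at 2 to 22 counts, most, and then PHGDH, CTH and CHAC1, at 18 to 269 counts.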
